A study of Homo sapiens with 23 samples.

Results

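The 10 genes described here carry glucose into the cell and break it down to lactate. They are the glucose transporter SLC2A1 and the enzymes HK2, PFKP, PFKFB3, ALDOA, GAPDH, PGK1, ENO1, PKM and LDHA, taken by gene symbol out of 58358 genes in the RNA-seq table. RNA was sequenced in 13 lines of MCF10A, a non-transformed human mammary epithelial cell line, with 1 library per line and no replicate library. Contact mutants change a p53 residue that touches DNA (R248Q, R248W, R273C and R273H), structural mutants change the fold of the DNA binding domain (Y163C, R175H, H179R, Y220C, Y234C and G245S), and the controls are WTKD, with wild-type p53 knocked down by shRNA, WTOE, made to overexpress V5-tagged wild-type p53, and WT, the parental cells. Each mutant line was made by lentiviral delivery of V5-tagged mutant p53 into cells that kept the endogenous wild-type gene, so each is 1 stably transduced line, and all lines grew untreated in medium with serum, EGF and insulin. The mutants share a vector backbone that no control is described as carrying. The WTOE construct was in another backbone, WTKD carried an shRNA construct and WT was the parental line. Vector, transduction and mutation therefore cannot be told apart in any comparison of mutant with control lines. Because each line has 1 library, the lines of a group stood in for replicates, and p-values measure the spread between lines.

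Glycolysis starts when SLC2A1 (GLUT1) lets glucose through the cell membrane and a hexokinase such as HK2 traps it as glucose 6-phosphate. Phosphofructokinase-1, of which PFKP is the platelet-type subunit, makes the committed step and is stimulated by the fructose 2,6-bisphosphate that PFKFB3 makes. ALDOA splits the sugar, GAPDH and PGK1 run the first steps that yield NADH and ATP, ENO1 and PKM finish the path to pyruvate, and LDHA turns pyruvate into lactate. Many of these genes are direct targets of the hypoxia-inducible factors and of MYC, and wild-type p53 is known to restrain glucose use in several cell types.

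The number of genes detected ran from 12122 in R273H to 15975 in Y163C, with Y234C (12409) and WT (12284) also at the low end. R273H and Y234C stood apart, since 43.3% and 49.4% of the 14884 tested genes lay more than 1 log2 unit from the median of the 13 lines there. The basal keratin KRT5 was at 9.97 to 11.85 log2(TPM+1) in all 13 lines, and the 13 epithelial markers summed to 3020 to 7007 TPM in mutant lines, against 3310 to 5781 TPM in control lines. KRT14 and TP63 were listed at 0 in R273H. The 8 fibroblast markers summed to 4.66 to 76.8 TPM in mutant lines, against 5.14 to 43.3 TPM in control lines, and the 6 endothelial markers to at most 6.13 TPM. The 8 blood cell markers summed to at most 25.6 TPM in mutant lines, against at most 48.9 TPM in control lines, with PTPRC, CD3E, HBB and HBA1 at 0 in every line. With the number of genes detected as a covariate, the SLC2A1 and HK2 differences between mutant and control lines below were -1.06 and -0.96 log2, and the GAPDH and HK2 differences between contact and structural lines 0.98 and -0.94. The part of epithelial marker level in the results below was not tested.

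All 10 genes passed the filter on low values. In TPM, which is scaled for transcript length, the order of their median levels over the 13 lines was GAPDH (6884), LDHA (5847), ENO1 (1263), PKM (1091), PGK1 (303), PFKP (158), SLC2A1 (124), PFKFB3 (25.3), HK2 (24.0) and ALDOA (7.87). Several neighbours did not differ beyond their spread. GAPDH was above LDHA in 7 of 13 lines (mean difference 0.29 ± 1.06 log2, SD over lines), ENO1 was above PKM in 8 (0.05 ± 0.51), PFKP was above SLC2A1 in 9 (0.44 ± 0.77), and PFKFB3 was above HK2 in 7 (0.36 ± 1.37). The steps from LDHA to ENO1 and from PKM to PGK1 held in 13 of 13 lines, the second at 1.95 ± 0.97 log2. ALDOA is listed low, but 54.2% of its exonic bases in the annotation lie in other genes, 42.8% in ENSG00000285043, which carries the same symbol in the table. Reads that fall in more than 1 gene were left out of the counts behind these values, so the level of ALDOA is uncertain. For GAPDH 17.6% of exonic bases overlapped another gene and for the other 8 genes at most 7.51%. That highest value was for SLC2A1, whose overlapping gene is absent from the RNA-seq table. Rows for pseudogene copies of GAPDH held 1.21% to 3.08% of the TPM of the gene and its copies, those of LDHA 0.667% to 3.13%, and those of ALDOA up to 51.7%, in H179R.

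**Figure D1:**
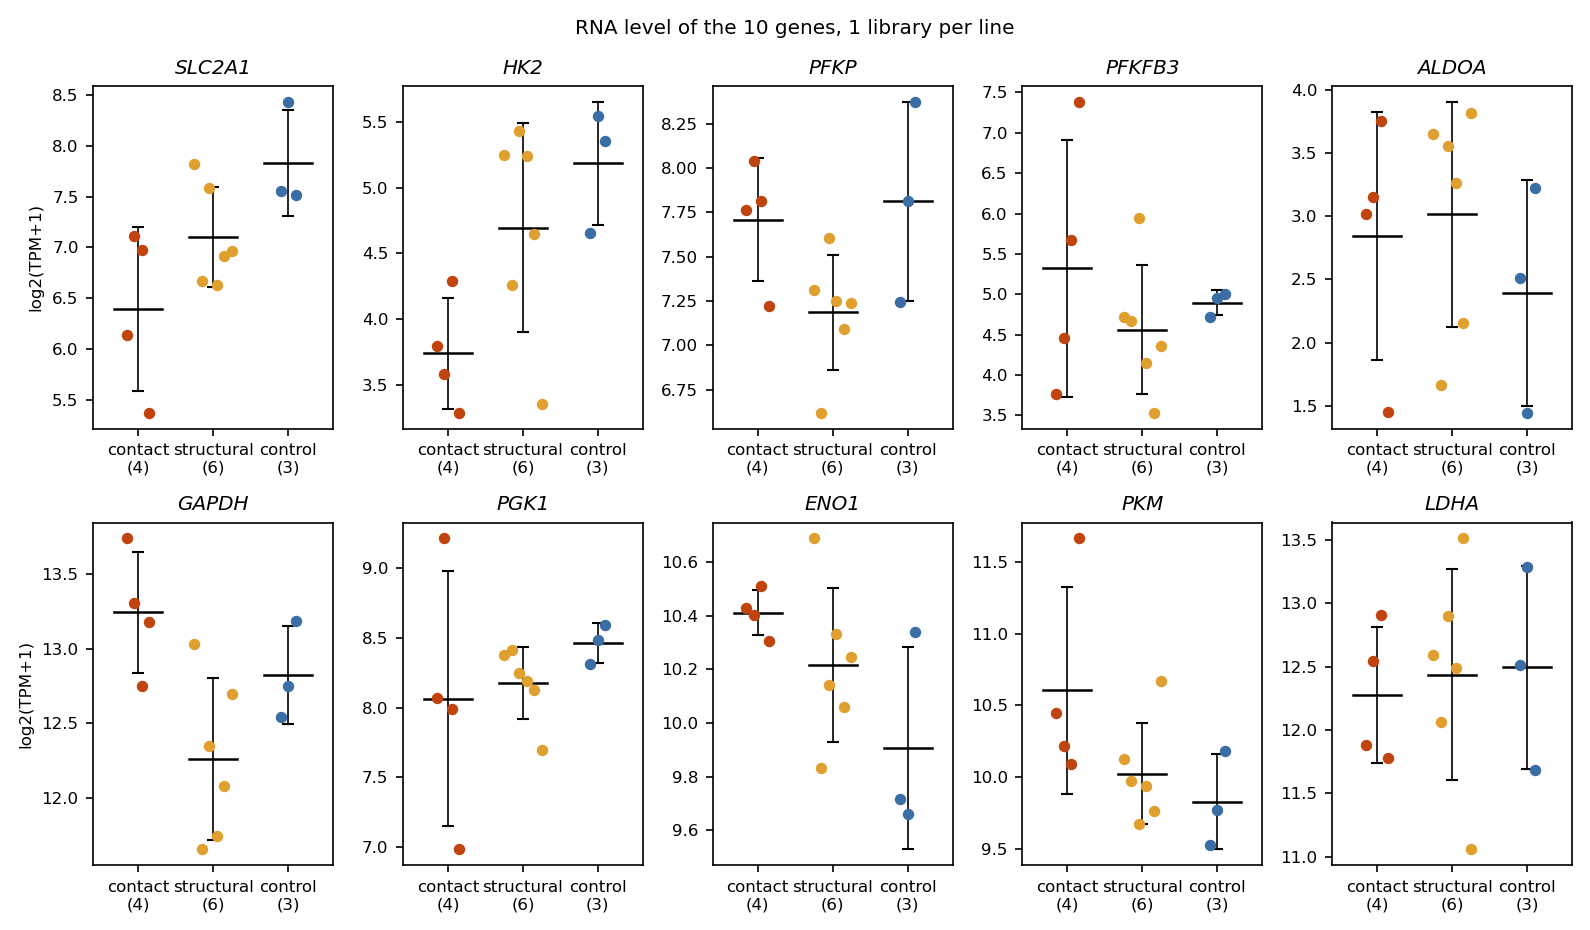
RNA level of each gene in log2(TPM+1), 1 point per line, for contact mutants, structural mutants and controls; horizontal lines are group means and bars the SD over lines, and the vertical axes differ between genes. SLC2A1 lies between 5.37 and 7.82 in the 10 mutant lines, against 7.51 to 8.44 in the 3 control lines, and the R273H line is the highest point for PFKFB3 (7.39) and PKM (11.67).

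At glucose entry most mutant lines sat below the controls. SLC2A1 (ENSG00000117394, chr1:42925353-42958893, minus strand) had 69.5 TPM in R248Q, 137 in R248W, 124 in R273C and 40.3 in R273H among contact mutants, a lowest, median and highest value of 98.2, 122 and 225 TPM over the 6 structural mutants, and 187, 345 and 182 TPM in WTKD, the library labelled WTOE and WT. The mutant lines G245S and R175H were inside the control range and the other 8 lay below the lowest control. HK2 (ENSG00000159399, chr2:74834127-74893359, plus strand) had 12.9 TPM in R248Q, 11.0 in R248W, 18.6 in R273C and 8.76 in R273H, structural values from 9.23 to 42.3 TPM with a median of 30.4, and 24.2, 45.7 and 40.0 TPM in WTKD, the library labelled WTOE and WT. For HK2 7 of the 10 mutant lines lay below the lowest control, as did 7 for PGK1 and 6 for PFKFB3. Over all tested genes, 8.57% had at least 7 of 10 mutant lines below the lowest control. HK2 and SLC2A1 moved together over the 13 lines (Pearson r = 0.72, Spearman rho = 0.73, each point is 1 line and the lines differ in genes detected; r = 0.67 over 11 lines without R273H and Y234C).

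The start regions of this pair are shown because the pair varied together, with matches to ACGTG, a form of the hypoxia response element core, in capitals. Other forms of the core, such as GCGTG, were not counted. Each run is the 250 bases before a RefSeq start site on GRCh38, read on the strand of the gene, for SLC2A1 at chr1:42958869-42959118 (minus strand) and for the first HK2 start at chr2:74833877-74834126 (plus strand).
SLC2A1: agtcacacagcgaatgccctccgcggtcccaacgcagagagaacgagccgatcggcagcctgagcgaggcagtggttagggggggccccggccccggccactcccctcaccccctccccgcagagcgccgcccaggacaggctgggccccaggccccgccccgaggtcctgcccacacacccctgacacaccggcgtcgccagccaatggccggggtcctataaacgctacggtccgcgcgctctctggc
HK2: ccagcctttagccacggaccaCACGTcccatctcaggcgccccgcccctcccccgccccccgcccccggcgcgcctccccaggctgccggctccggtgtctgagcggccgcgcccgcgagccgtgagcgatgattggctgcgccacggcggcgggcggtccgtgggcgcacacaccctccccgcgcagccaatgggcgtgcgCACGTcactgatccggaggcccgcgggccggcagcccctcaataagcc
The SLC2A1 window held 0 matches on either strand and this HK2 window 2, while the window before the second HK2 start held 4, from 2 copies of CACGTG that count on both strands. Of 35116 such windows over all genes, 18.5% held at least 1 match, 7.52% at least 2, 1.55% at least 3 and 0.669% at least 4.

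At the committed step, PFKP (ENSG00000067057, chr10:3066333-3137718, plus strand) had 216 TPM in R248Q, 262 in R248W, 224 in R273C and 148 in R273H, structural values from 97.4 (H179R) to 194 TPM with a median of 151, and 151, 224 and 330 TPM in WTKD, the library labelled WTOE and WT. The groups overlapped, and the highest PFKP level was in the parental line. PFKFB3 (ENSG00000170525, chr10:6144934-6254644, plus strand) had the highest SD of the 10 genes, 1.01 log2 over the 13 lines, which rested on R273H. Without that line its SD was 0.70, below ALDOA at 0.81 and HK2 at 0.77. It had 12.5 TPM in R248Q, 21.0 in R248W, 50.0 in R273C and 166 in R273H, structural values from 10.5 (Y220C) to 60.4 TPM (R175H) with a median of 22.0, and 25.3, 30.1 and 31.1 TPM in WTKD, the library labelled WTOE and WT. The controls were close together for PFKFB3, with 6 mutant lines below and 3 above them.

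In the middle of the pathway, GAPDH (ENSG00000111640, chr12:6534512-6538374, plus strand) had 13688 TPM in R248Q, 10108 in R248W, 6884 in R273C and 9247 in R273H, structural values from 3218 (H179R) to 8384 TPM (G245S) with a median of 4762, and 5945, 6893 and 9288 TPM in WTKD, the library labelled WTOE and WT. Contact lines other than R273C, which was at the median of the 13 lines, were thus at the upper end. G245S was the structural line that reached into the range of the contact lines. PGK1 (ENSG00000102144, chrX:77910739-78129295, plus strand) had 268 TPM in R248Q, 593 in R248W, 254 in R273C and 126 in R273H, structural values from 206 to 340 TPM with a median of 297, and 316, 358 and 386 TPM in WTKD, the library labelled WTOE and WT. The contact lines held both the highest and the lowest PGK1 level of the panel. ALDOA (ENSG00000149925, chr16:30064164-30070457, plus strand) ranged from 1.73 TPM in R273H to 12.5 in R273C among contact mutants and from 2.17 (H179R) to 13.1 TPM (Y234C) among structural mutants, with 4.71, 1.72 and 8.35 TPM in WTKD, the library labelled WTOE and WT. The overlapping ENSG00000285043 had 1.42 TPM in WTKD and 3.42 TPM in the library labelled WTOE, and was listed at 0 in the other 11 lines. When both rows were summed, a choice made after seeing the data, the mutant minus control difference of ALDOA was 0.06 log2 in place of 0.55.

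At the lower end, ENO1 (ENSG00000074800, chr1:8861000-8879190, minus strand) varied least, with an SD of 0.31 log2 over the 13 lines and a 2.04-fold range. It had 1379 TPM in R248Q, 1352 in R248W, 1458 in R273C and 1263 in R273H, structural values from 910 to 1651 TPM with a median of 1171, and 841, 808 and 1295 TPM in WTKD, the library labelled WTOE and WT. All 10 mutant lines were above WTKD and the library labelled WTOE, while WT was inside the mutant range. PKM (ENSG00000067225, chr15:72199029-72231819, minus strand) had 1398 TPM in R248Q, 1190 in R248W, 1091 in R273C and 3259 in R273H, structural values from 814 to 1627 TPM with a median of 993, and 736, 872 and 1162 TPM in WTKD, the library labelled WTOE and WT. The table gives PKM per gene, so its M1 and M2 splice forms are not separated. LDHA (ENSG00000134333, chr11:18394560-18408425, plus strand) had 3774 TPM in R248Q, 5956 in R248W, 7680 in R273C and 3505 in R273H, structural values from 2128 (Y234C) to 11705 TPM (Y220C) with a median of 5968, and 5847, 9993 and 3289 TPM in WTKD, the library labelled WTOE and WT. LDHA levels of mutants and controls overlapped almost over their whole range.

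PKM ran against the entry genes over the 13 lines, with r = -0.73 for SLC2A1 (rho = -0.47) and r = -0.70 for HK2 (rho = -0.69), which became -0.48 and -0.49 over the 11 lines without R273H and Y234C. The LDHA, PGK1 and PKM windows are shown because they held the most matches to ACGTG among the 18, an intermediate number and none. Each run is again the 250 bases before a RefSeq start on GRCh38, read on the strand of the gene, with matches in capitals, at chr11:18394313-18394562 (plus strand, first LDHA start), chrX:78103998-78104247 (plus strand) and chr15:72231191-72231440 (minus strand).
LDHA: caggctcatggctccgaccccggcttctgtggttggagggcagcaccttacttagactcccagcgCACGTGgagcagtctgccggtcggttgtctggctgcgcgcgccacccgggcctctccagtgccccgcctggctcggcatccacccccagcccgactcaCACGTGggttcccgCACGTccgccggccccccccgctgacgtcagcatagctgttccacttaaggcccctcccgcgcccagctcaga
PGK1: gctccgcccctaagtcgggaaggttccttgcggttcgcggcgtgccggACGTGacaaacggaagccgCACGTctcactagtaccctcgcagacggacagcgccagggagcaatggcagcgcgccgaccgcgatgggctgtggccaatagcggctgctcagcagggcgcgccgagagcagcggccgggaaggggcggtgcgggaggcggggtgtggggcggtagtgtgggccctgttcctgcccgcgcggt
PKM: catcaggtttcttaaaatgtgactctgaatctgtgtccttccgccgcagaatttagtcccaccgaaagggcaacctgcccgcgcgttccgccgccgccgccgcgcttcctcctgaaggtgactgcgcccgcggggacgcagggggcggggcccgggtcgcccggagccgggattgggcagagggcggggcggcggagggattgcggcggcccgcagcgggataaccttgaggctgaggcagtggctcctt
The first LDHA window held 5 matches, a number that 0.177% of the 35116 windows reached, with 2 copies of CACGTG among them. The PGK1 window held 2, the GAPDH window 2 (from 1 copy of CACGTG that counts on both strands), and the PKM and ENO1 windows 0. In all, 7 of the 10 genes had a match in at least 1 of their windows (18 over the 10 genes), as did 21.7% of all 27305 symbols. A match here is a run of letters and no measurement of binding.

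The 10 genes varied in different directions over the lines. Of their 45 pairs, 25 had a positive and 20 a negative r over the 13 lines, with a median of 0.07, and only 6 pairs reached r of 0.5 and 4 fell to -0.5 or below. The median SD of the 10 genes over lines was 0.65 log2, beside 0.70 for the 4031 tested genes of mean level 5 or more and 0.95 for all genes tested. Among genes of mean level 5 or more, the 8 whose level was most like the mean of the 10 after centring were MARS, CCDC86, NXT1, NOL6, DUSP14, RNPEP, PLP2 and KIF22, with r from 0.83 for MARS to 0.76 for KIF22 over 13 lines, as a description of these libraries.

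**Figure D2:**
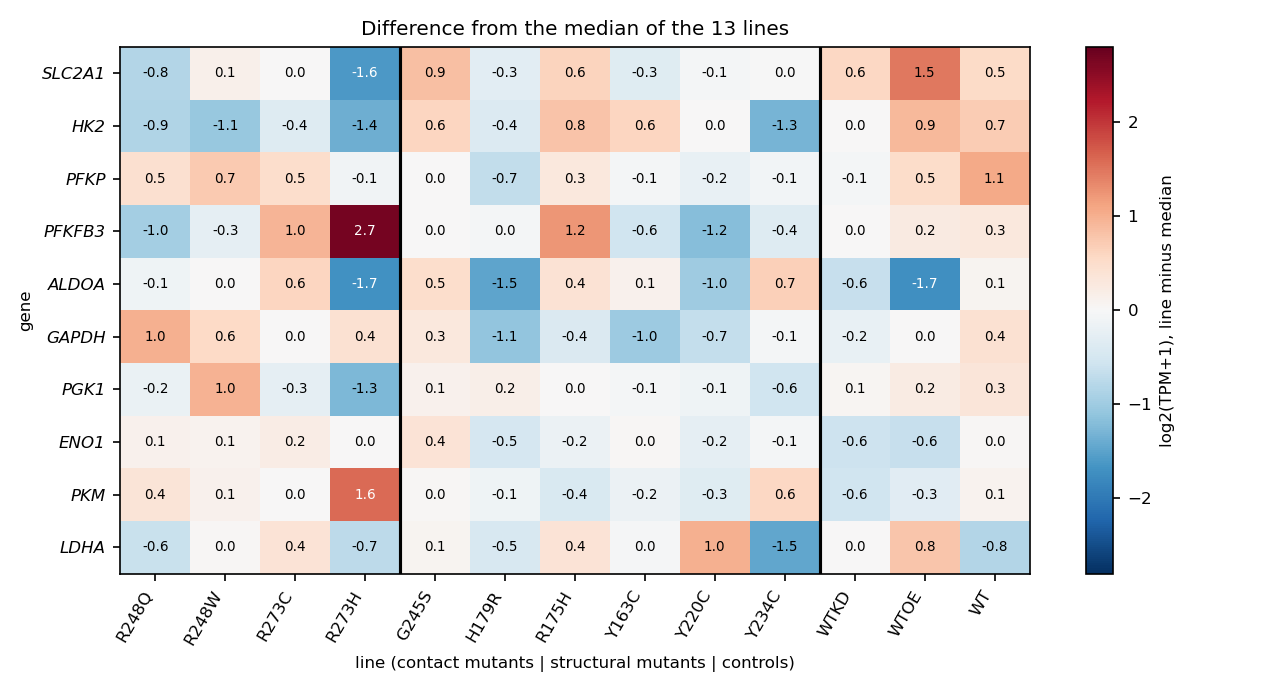
Each cell is the log2(TPM+1) of a gene in a line minus the median of that gene over the 13 lines, with red above and blue below the median; vertical lines part contact mutants, structural mutants and controls. The R273H column holds strong colours, with PFKFB3 2.67 and PKM 1.58 above the median.

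R273H was the line in which the 10 genes departed most from the panel. It was the highest line for PFKFB3 and PKM and the lowest for SLC2A1, HK2 and PGK1, and 6 of the 10 genes lay more than 1 log2 unit from their median there. These counts stand beside shares over all tested genes of 8.28% highest, 22.6% lowest and 43.3% more than 1 unit away in R273H, so 6 of 10 stands beside a library that departs widely over all genes. Among genes with a mean level of 5 or more, 39.9% lay that far away in R273H. Y234C, the other library that stood apart, had 2 of the 10 genes more than 1 unit away (ALDOA was not among them, while HK2 and LDHA were), against 49.4% of all tested genes and 57.1% of those with a mean level of 5 or more. The library labelled WTOE was highest for SLC2A1 and HK2 and lowest for ALDOA and ENO1, 4 of the 10, where 13.3% of all tested genes were highest or lowest. Its ALDOA level of 1.72 TPM was close to that of R273H, 1.73 TPM. The overlapping ENSG00000285043 had 3.42 TPM in the library labelled WTOE and 0 in R273H, so the lowest line for ALDOA is uncertain. G245S and WT each had 9 of the 10 genes above the median, where 45.1% and 41.4% of all tested genes were above theirs. H179R and Y220C each had 1 of the 10 above it, against 52.4% and 50.8% of all tested genes.

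Lines that share a residue could be set side by side without a test. R273H minus R273C was at least 1 log2 unit for 7 of the 10 genes, higher for PFKFB3 (1.71) and PKM (1.58) and lower for SLC2A1 (-1.60), HK2 (-1.01), ALDOA (-2.30), PGK1 (-1.01) and LDHA (-1.13), in a contrast in which 54.3% of all tested genes passed that size. The contrast was shifted down as a whole, with a median of -0.78 over all tested genes and -0.80 over the 10. R248Q minus R248W passed it for 1 gene, PGK1 (-1.14), against 39.8% of all genes, with SLC2A1 next at -0.97. WTKD minus WT passed it for PFKP alone (-1.13), against 40.4% of all genes. The library labelled WTOE minus WT passed it for LDHA (1.60) and ALDOA (-1.78), against 38.4% of all genes, and SLC2A1 was 0.92 there. The ALDOA value leaves out the overlapping ENSG00000285043, at 3.42 TPM in the library labelled WTOE and 0 in WT, so its size is uncertain. Each of these pairs is a contrast of 2 libraries and has no replicate check.

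The design asks first whether mutant lines differ from control lines. On the log2(TPM+1) scale SLC2A1 averaged 6.82 ± 0.70 in the 10 mutant lines and 7.83 ± 0.52 in the 3 control lines (SD over lines), a difference of -1.02 with a standard error of 0.50. HK2 averaged 4.31 ± 0.81 in mutant lines and 5.19 ± 0.47 in control lines, a difference of -0.87 with a standard error of 0.53. ENO1 averaged 10.29 ± 0.24 in mutant lines and 9.91 ± 0.38 in control lines, and PKM averaged 10.26 ± 0.58 in mutant lines and 9.83 ± 0.33 in control lines, with differences of 0.39 and 0.43. In limma 0 of the 10 genes passed an adjusted p of 0.05, against 3 of 14884 genes tested (0.0202%), and 0 of the 10 had an unadjusted p under 0.05, against 4.83% of all genes. The smallest of the 10 was SLC2A1, with an unadjusted limma p of 0.0567 (adjusted p = 0.932) and a 95% interval of -2.07 to 0.03. Of the 10 differences 3 were positive and 7 negative, with a median of -0.15, beside 45.0% positive and a median of -0.08 over all genes tested. For none of the 10 genes were the mutant and control ranges apart, as they were for 1.00% of all genes. Without the library labelled WTOE the SLC2A1 difference was -0.72 and that of HK2 -0.69, and without R273H and Y234C they were -0.85 and -0.62. The 95% intervals of the other genes spanned 0 as well, for example -1.42 to 1.37 for PFKFB3, so sizeable differences in either direction remain possible at this number of lines.

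The design asks next whether contact and structural mutants differ. GAPDH averaged 13.24 ± 0.41 in contact lines and 12.26 ± 0.54 in structural lines, a difference of 0.98 with a standard error of 0.45 and a 95% interval of 0.01 to 1.96. HK2 averaged 3.74 ± 0.42 in contact lines and 4.70 ± 0.79 in structural lines, a difference of -0.96 with a standard error of 0.51. PFKFB3, PKM and PFKP had positive differences of 0.76, 0.58 and 0.52, and SLC2A1 a negative difference of -0.70. In limma 0 of the 10 genes passed an adjusted p of 0.05, and 0 of all 14884 genes did (0%). GAPDH was the 1 gene of the 10 with an unadjusted p under 0.05 (0.0479, adjusted p = 0.960), where 734 of all genes tested had such a p (4.93%). Of the 10 differences 5 were positive and 5 negative, with a median of 0.04, against 0.01 over all genes tested. For none of the 10 genes were the contact and structural ranges apart, against 1.03% of all genes. GAPDH and HK2 kept differences of 1.01 and -0.81 without R273H, while without that line the difference was 0.07 for PFKFB3, 0.23 for PKM and -0.36 for SLC2A1, so these rested in large part on R273H.

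**Figure D3:**
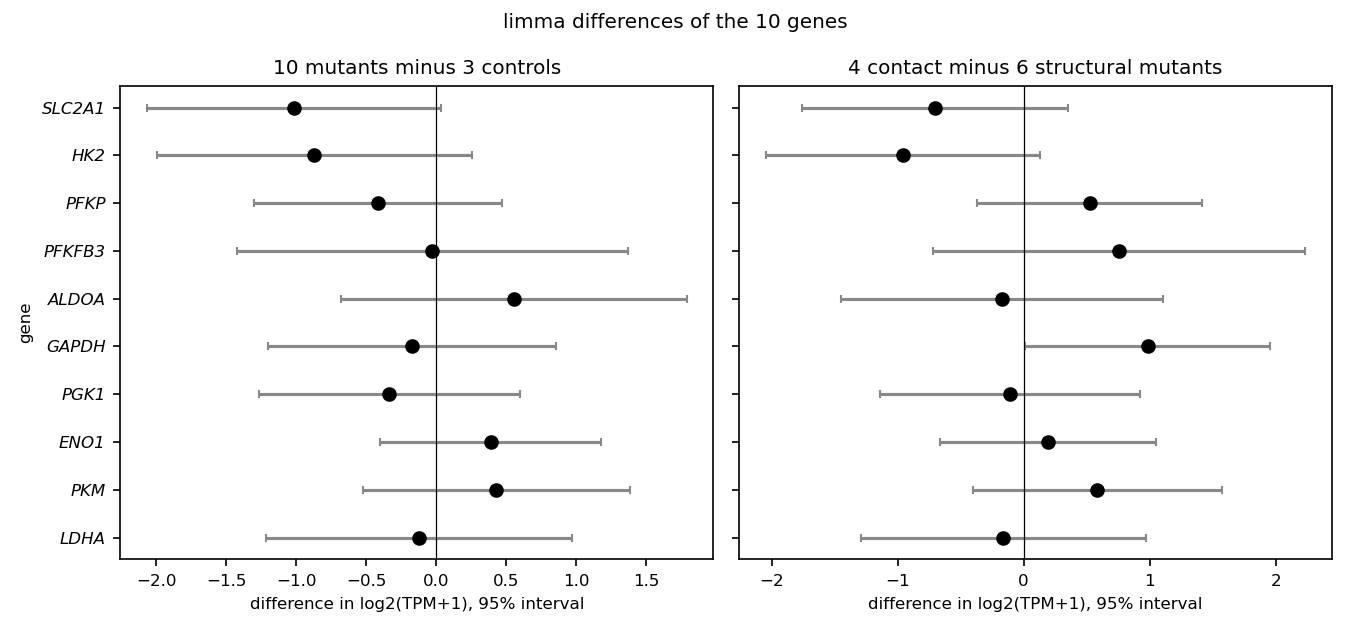
Difference in log2(TPM+1) with its 95% interval from limma for each gene, on the left 10 mutant minus 3 control lines and on the right 4 contact minus 6 structural lines. The interval of GAPDH on the right, 0.01 to 1.96, is the only one that leaves out 0, and no gene passed the adjusted threshold.

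As a sum, the 10 genes took from 0.999% (H179R) to 2.08% (R248Q) of all TPM. The summed share averaged 1.62% ± 0.37 in the 10 mutant lines and 1.66% ± 0.28 in the 3 control lines, and 1.90% ± 0.15 in contact lines and 1.44% ± 0.35 in structural lines (SD over lines). No test was run on this sum. GAPDH and LDHA made up 71.8% to 86.5% of it, and their balance shifted between lines, from 3.63 GAPDH per LDHA in R248Q to 0.369 in Y220C. The contact lines were at 1.78% or more, and among structural lines G245S (1.81%) and Y220C (1.85%) reached as high. Most of the gap between contact and structural means was that of GAPDH, at 0.998% in contact and 0.520% in structural lines. LDHA averaged 0.523% in contact and 0.628% in structural lines, and the other 8 genes 0.380% and 0.292%.

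**Figure D4:**
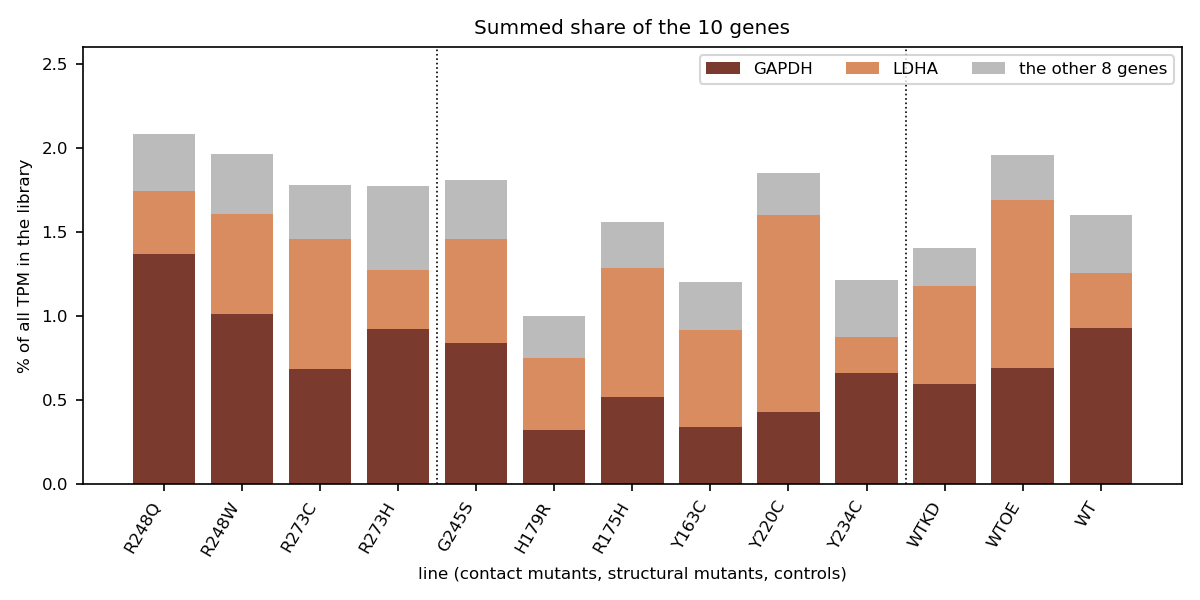
Percent of all TPM of each library taken by GAPDH, LDHA and the other 8 genes, with contact mutants left, structural mutants in the middle and controls right. The bars run from 0.999% in H179R to 2.08% in R248Q, and in Y220C the LDHA part is the larger, at 0.369 GAPDH per LDHA.

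For 7 of the genes the share among isozymes was computed within each library, which does not depend on how the library was scaled. HK2 held 13.8% ± 4.09 of hexokinase TPM in contact lines and 24.0% ± 8.41 in structural lines, and HK1, the housekeeping hexokinase, held most of the rest. ALDOA held 34.7% ± 14.1 of aldolase TPM in contact lines and 64.9% ± 19.9 in structural lines, with ALDOC as its partner and with the uncertain ALDOA level above. PFKFB3 held 84.8% ± 14.7 of the PFKFB TPM in contact lines and 68.5% ± 16.5 in structural lines, reaching 99.5% in R273H. By two-sided exact permutation over lines these 3 had p = 0.0714, 0.0381 and 0.152, with adjusted p = 0.500, 0.500 and 0.538 over 14 share comparisons. Between mutant and control lines PFKP held 75.1% ± 7.67 of phosphofructokinase-1 TPM in mutant lines and 81.3% ± 4.02 in control lines (exact permutation p = 0.206, adjusted p = 0.538), and LDHA held 78.1% ± 6.83 of LDHA and LDHB TPM in mutant lines and 77.2% ± 8.42 in control lines (exact permutation p = 0.878, adjusted p = 1). In all, 0 of 7 shares passed the adjusted threshold in either comparison, where the smallest p that exact permutation could give was 0.0035 for mutant against control and 0.00476 for contact against structural lines. After adjustment over 14 comparisons, a lone share could not pass between contact and structural lines even at that smallest p. Between mutant and control lines a lone share could pass only at its smallest p. The count of 0 therefore does not show that the shares are alike. SLC2A1 was at least 97.9% of SLC2A1 and SLC2A3, since SLC2A3 (GLUT3) was above 0 only in Y220C (1.31 log2) and WT (2.28).

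**Figure D5:**
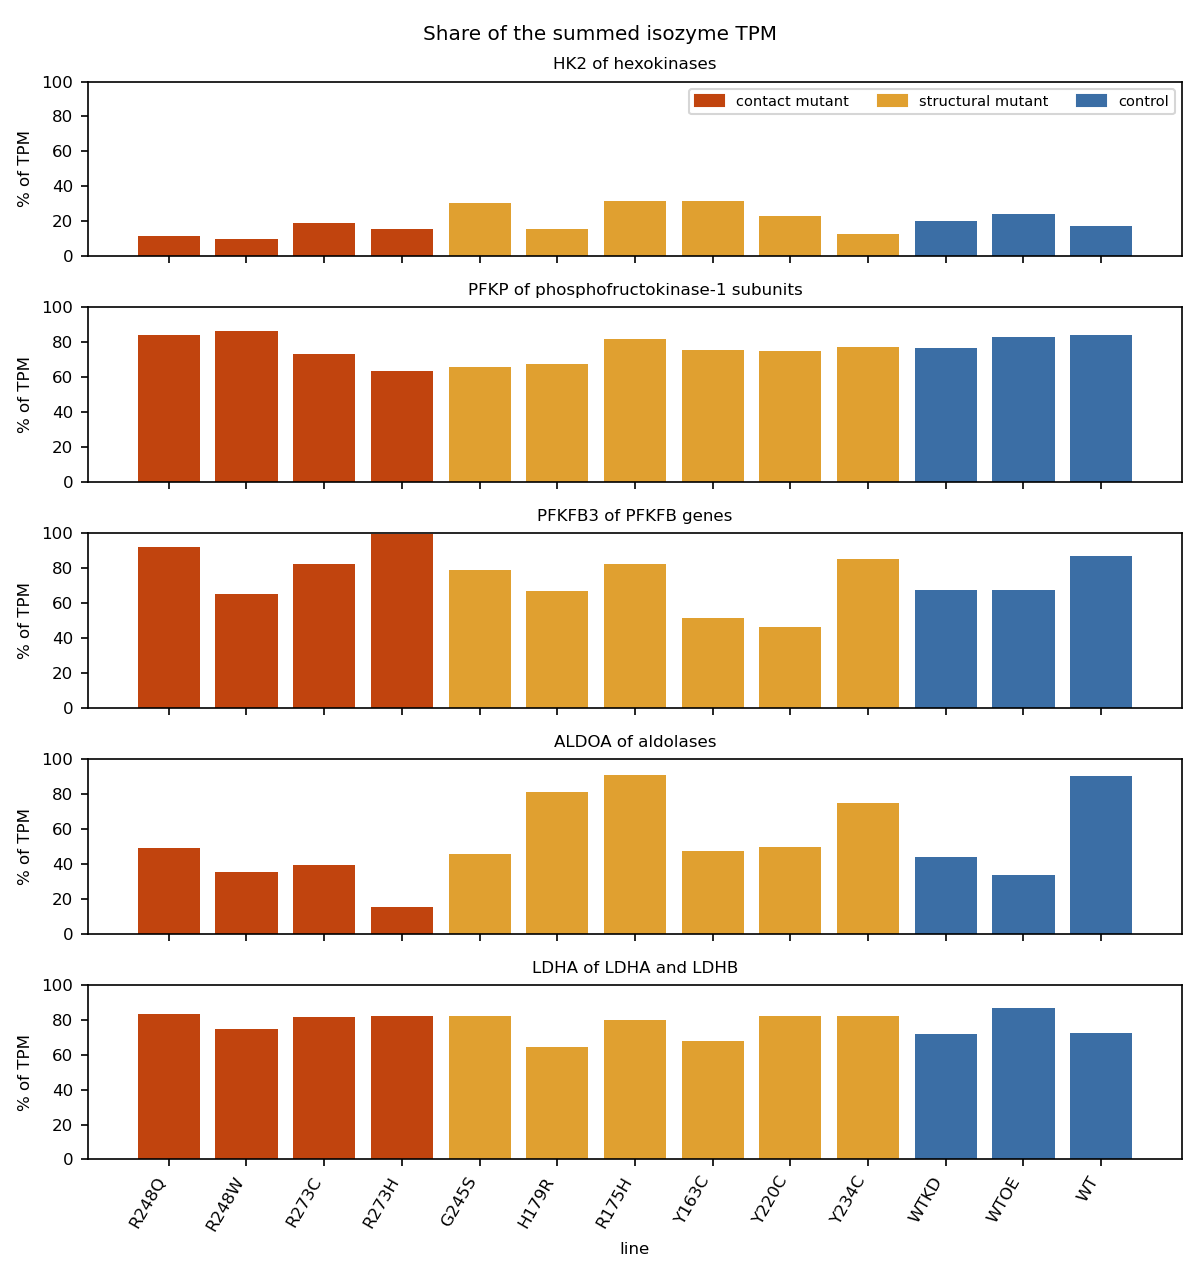
Percent of the summed TPM of each isozyme group held by HK2, PFKP, PFKFB3, ALDOA and LDHA, 1 bar per line, with contact mutants left, then structural mutants, then controls. The HK2 share is between 9.72% and 18.8% in contact lines, against 12.8% to 31.5% in structural lines.

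Some isozyme partners were uneven over the lines. ENO2, the neuronal enolase, was at 2.88 log2(TPM+1) in R248Q, 3.94 in R248W, 2.11 in R273C, 0.15 in R273H, 1.57 in G245S, 2.77 in H179R and 1.17 in Y163C, and was listed at 0 in R175H, Y220C, Y234C and all 3 controls. Its mutant minus control difference of 1.46 did not pass (limma adjusted p = 0.932), and the ENO1 share of enolase TPM was lowest in R248W, at 99.0%. PFKL, the liver-type subunit, was at 6.27 log2(TPM+1) in R273H, against 1.74 to 4.22 in the other 12 lines, while PFKM, the muscle type, was at 3.28 there, its lowest. HKDC1, a hexokinase-domain protein, was at 4.47 in WTKD and at most 1.99 elsewhere. HK3, GAPDHS, PGAM2 and PKLR were listed at 0 in every line.

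The neighbouring steps of glucose use were described with lists written for this purpose. Of 22 other glycolysis enzymes and isozymes 12 were tested and 0 passed in either direction and either comparison, with 4 positive and 8 negative differences in both (median -0.22 for mutant minus control and -0.20 for contact minus structural). Of 14 glucose and lactate transporters 7 were tested, of 11 control points and brakes 8, of 14 genes of pyruvate entry 14, of 8 pentose phosphate genes 8, of 12 hypoxia-inducible factor genes and regulators 9, of 20 other hypoxia-inducible targets 19 and of 11 p53 targets acting on glucose use 7, and 0 passed in any of these lists. The largest differences in them were those of PDK4, the kinase that shuts pyruvate dehydrogenase, 2.37 for mutant minus control (0.16 to 6.06 log2 in mutant lines, against 2.12, 1.57 and 0 in controls; limma adjusted p = 0.932), and PGLS of the pentose phosphate branch, 2.11 for contact minus structural (limma adjusted p = 0.960), with R273H at 8.82 log2. SLC16A4, a monocarboxylate transporter family member, was at 4.88, 4.47, 4.16 and 3.78 log2(TPM+1) in R248Q, R248W, R273C and R273H, above all 6 structural lines (1.60 to 3.66), a difference of 2.06 (limma unadjusted p = 0.00105, adjusted p = 0.764). SLC2A8, an intracellular glucose transporter, had a mean 2.02 higher in mutant than in control lines and was listed at 0 in R273H, WTKD and the library labelled WTOE (limma adjusted p = 0.895), and BPGM, the bisphosphoglycerate mutase, had a mean 1.62 higher in mutant than in control lines (limma adjusted p = 0.932), where the mutant lines were at 2.72 to 4.43 log2(TPM+1) and the controls WTKD, the library labelled WTOE and WT at 1.97, 4.32 and 0. BNIP3L, a hypoxia-inducible mitophagy receptor, differed by 1.52 between contact and structural lines (limma adjusted p = 0.970).

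Epithelial markers also had lower means in contact than in structural lines, without passing the test. Of 13 markers 11 had a negative contact minus structural difference, with a median of -0.84 and 0 past limma's adjusted threshold, beside 7388 negative differences among 14884 genes tested. TP63, the basal transcription factor, differed by -3.11 (0 in R248W, R273C and R273H), CDH1 (E-cadherin) by -2.40 (0.96 in R248Q and 0.25 in R273H), KRT17 by -1.97 and EPCAM by -1.84 log2. For mutant minus control TP63 differed by -2.49. Their part in the levels of the 10 genes was not tested.

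V5 ChIP-seq, which pulls down the tagged p53 protein, was available as peak lists for Y220C, Y234C, R273C, R273H and WTOE. In the 4 mutant lists 0 of the 10 genes had a peak within 2500 bases upstream to 100 bases downstream of a start site, where 0.250% of tested genes did in Y220C, 1.19% in Y234C, 0% in R273C and 2.68% in R273H. In the WTOE list 1 of the 10, PKM, had such a peak, against 6.72% of tested genes. This peak had a fold enrichment of 2.86 over input and a -log10 q of 1.41, where the median peak of that list had 3.08 and 2.09. At a -log10 q of at least 2 it was not called. A window of 10000 bases on each side added SLC2A1 in the WTOE list (summit 10110 bases from the nearest start, fold enrichment 3.01). That summit, at chr1:42919389, lies outside the gene on its downstream side. The start nearest to it is 1 of 11 annotated starts and not the RefSeq start whose window is shown above. The closest peak in a mutant list was 12212 bases from an HK2 start, in R273H, with a fold enrichment of 3.81.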

How the data were processed

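RNA-seq was done in 13 lines and V5 ChIP-seq in 5. The authors aligned RNA reads with STAR to Ensembl GRCh38, took reads per gene and left out mitochondrial RNA. The deposited values are log2 of TPM plus 1, so differences understate changes of low genes. TPM keeps no depth, so depth is unknown and no counting interval is given. The paper reports that most RNA reads were duplicates, and that mitochondrial reads were a large part that differed between samples. Their part in the levels of single libraries, and in genes listed at 0, was not tested. For peaks the authors used Bowtie2 2.1.0, SAMtools 1.7 and MACS2 (version 2.1.2.20181017, q threshold 0.05, input as background), with 1 list per line. The deposited fold enrichment is a ratio over input, and deposited -log10 values are those of p and q. The deposited MACS2 score was not used.

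A check of the manipulated gene's level and some list genes and sequences are not reported here, and directions drawn from WTOE refer to the library so labelled. The members and lists were chosen with earlier results of these data known. The 14884 genes that reached 1 on the log2 scale in 3 or more lines entered two-sided limma 3.58.1 (R 4.3.3), adjusted by Benjamini-Hochberg over all of them. In simulated data a planted difference of 2 log2 was recovered for 12% of changed genes in mutant minus control and 0% in contact minus structural. A planted 4 log2 was recovered for 86.5% and 85%. The changed genes were drawn from all tested genes, whose median SD over lines was 0.95 log2, beside 0.65 for the 10 genes. No difference below 2 log2 was planted, so these percentages do not give the recovery for the 10 genes. That none of the 10 passed does not show that the groups are alike. Mutant versus control used 13 lines and contact versus structural the 10 mutant lines. Isozyme shares were tested by exact permutation over lines (Python 3.11.15). Starts and overlaps came from GENCODE 44, which held 98.9% of the gene IDs, and promoters from RefSeq (GRCh38.p14), matched for 10 of 10 symbols. Genes of other lists were named when past the threshold or with a difference of at least 1.5 log2, at most 5 a list, plus isozyme partners and the 8 genes most like the mean of the 10. Alternatives were the pseudocount, filter, scaling, limma settings, genes detected as a covariate, lines left out and peak windows.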

Additional observations from a re-analysis of the deposited data

Results flagged for a closer look

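In 54 sets of lines (each gene level, isozyme share and the summed share within the contact, structural and all mutant lines) 4 had a highest or lowest line set apart from the rest by a gap that is large for its range (Dixon's criterion at 95%), where chance sets apart about 1 in 20. PKM in R273H, at 11.67 log2(TPM+1), was far above the next of the 10 mutant lines (Y234C, 10.67). The share of SLC2A1 in SLC2A1 and SLC2A3 was 98.8% in Y220C and 100% in every other mutant line, which set Y220C apart both among the 6 structural and among the 10 mutant lines. That share is at its ceiling elsewhere, so any SLC2A3 value above 0 in a lone line sets it apart by construction, and it accounts for 2 of the 4. The share of ENO1 among enolases was 99.3% in H179R, against 99.8% in the next structural line.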

How the results depend on the processing

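Across 382 recomputed differences of the 10 genes, 0 passed limma's adjusted threshold (lowest adjusted p 0.649) and 20 changed sign. The 3 genes called over the whole table for mutant minus control became 6 with a pseudocount of 0.1, 5 without the filter, 6 when rescaled without the 50 highest genes, 5 with genes detected as a covariate and 8 without R273H and Y234C. Leaving out 1 line in turn gave 0 to 11, with 11 without WTKD and 0 without R248W, G245S, H179R, Y163C or Y220C. For contact minus structural the count of 0 became 5 with a pseudocount of 0.1, 1 without the filter, 2 when rescaled, 1 without R273H and Y234C, and 0 to 1 leaving out 1 line in turn (1 without R175H or R273H). The 1 gene with a promoter peak became 0 at a -log10 q of at least 2 and 2 with a window of 10000 bases on each side.

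For gene levels, the signs that turned were all of differences smaller than their standard error when all lines were used. For mutant minus control PFKFB3 was 0.089 after quantile normalization, 0.0135 rescaled, 0.19 with genes detected as a covariate, and -0.31 to 0.12 leaving out 1 line. LDHA was 0.12 without R273H and Y234C and -0.53 to 0.27 leaving out 1 line, and GAPDH -0.31 to 0.00715. For contact minus structural, without R273H and Y234C, ALDOA was 0.45 and PGK1 0.16, and leaving out 1 line gave -0.48 to 0.29 for ALDOA, -0.49 to 0.25 for PGK1 and -0.44 to 0.055 for LDHA. In percentage points, without R273H and Y234C the mutant minus control share was 0.861 for HK2, -3.23 for PFKFB3 and -0.0809 for LDHA. Leaving out 1 line gave -2.23 to 1.25 for HK2, -2.19 to 7.52 for PFKFB3, -1.65 to 5.80 for LDHA, -14.3 to 14.0004 for ALDOA and -0.122 to 0.918 for SLC2A1, and for contact minus structural -0.147 to 7.40 for PFKP. The mutant minus control share of ALDOA, -3.19 with all lines, thus moved widely in both directions with single lines left out. The cause was not tested. With 1 library per line, a group of 3 or 4 lines limits what can be called. No paired analysis was possible because the labels carry no replicate numbers and each line has 1 library.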
